A study of Homo sapiens with 8 samples.

Results

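The insulin-like growth factor (IGF) axis of recipient fibroblasts is described here through 10 genes, chosen by name and with earlier results of these data known. They are the 6 binding proteins IGFBP2, IGFBP3, IGFBP4, IGFBP5, IGFBP6 and IGFBP7, the ligands IGF1 and IGF2, the receptor IGF1R, and the protease PAPPA. All 10 were found by symbol among the 27696 genes of the count table, and 9 passed the filter on low counts that left 13798 genes for testing. IMR90 cells, primary fibroblasts of human embryo lung, spent 3 days in conditioned medium of IMR90 ER:RAS donor cells. The donor cells carry an oncogenic RAS fused to the oestrogen receptor that 4-OHT switches on to induce senescence. The medium was collected at day 0, 4, 7 or 10 of induction, and D0, D4, D7 and D10 name the recipient cultures by that day, with 2 independent experiments per group and so 8 libraries. Experiments 1 and 2 are named here by the replicate number of the library, which the labels do not tie to an experiment. D0 is the control and also received conditioned medium, from donor cells not yet induced. The medium was conditioned without serum, and serum was added back before use. Only recipient RNA was counted, so IGFs and binding proteins that arrived with the medium were not measured.

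IGF1 and IGF2 are secreted growth factors that act mainly by activating IGF1R, a receptor tyrosine kinase that signals through insulin receptor substrates, PI3K and AKT and keeps FOXO transcription factors out of the nucleus. Outside the cell most IGF is held by the IGF-binding proteins, which can keep it from the receptor or deliver it. PAPPA (pappalysin) is a secreted metalloprotease that cuts IGFBP4, and also IGFBP2 and IGFBP5, and so frees bound IGF, and the stanniocalcins STC1 and STC2 inhibit it. Fibroblasts are known for secreting several binding proteins, and binding proteins are among the factors that senescent cells secrete.

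The members lie on 8 chromosomes in GRCh38 as annotated in GENCODE release 29. IGFBP2 (chr2:216632828-216664436, plus strand) and IGFBP5 (chr2:216672105-216695525, minus strand) are neighbours that point towards each other. IGFBP3 is at chr7:45912245-45921874 (minus), IGFBP4 at chr17:40443461-40457731 (plus), IGFBP6 at chr12:53097436-53102345 (plus), IGFBP7 at chr4:57030773-57110385 (minus), IGF1 at chr12:102395874-102481744 (minus), IGF2 at chr11:2129112-2149603 (minus), IGF1R at chr15:98648539-98964530 (plus) and PAPPA at chr9:116153804-116402322 (plus). Whether reads were counted by strand is not given in the sources used here, so antisense neighbours matter. PAPPA-AS1 covers 21.2% of the exon bases of PAPPA on the other strand but had at most 5 counts in any library. IGFBP7 shares 18.9% of its exon bases with opposite-strand genes, of which POLR2B had between 1431 and 2238 counts, and AC007563.2, which covers 4.63% of IGFBP5, had at most 69. For IGF2, 73.7% of exon bases are shared with same-strand entries such as INS-IGF2, so its counts are uncertain.

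PAPPA had the largest fitted rise at D10, IGFBP3 the largest fitted fall, and IGFBP4 is the classical PAPPA substrate. The bases just upstream of a RefSeq start site of each are therefore shown. They are RefSeq promoter sequences on GRCh38.p14, read 5′ to 3′ on the gene's strand up to the RefSeq start site, and bases inside a GENCODE exon were left out. The windows are chr9:116153541-116153790 (plus) for PAPPA, chr17:40443200-40443449 (plus) for IGFBP4 and chr7:45921275-45921522 (minus) for IGFBP3. The IGFBP3 window lies inside the GENCODE span of the gene given above, downstream of its GENCODE start. Capitals mark matches, on either strand, to the motifs TATAAA, the core promoter element, TGANTCA, bound by AP-1, GGGCGG, known as the GC box, and GTAAACA, bound by FOXO factors.

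PAPPA: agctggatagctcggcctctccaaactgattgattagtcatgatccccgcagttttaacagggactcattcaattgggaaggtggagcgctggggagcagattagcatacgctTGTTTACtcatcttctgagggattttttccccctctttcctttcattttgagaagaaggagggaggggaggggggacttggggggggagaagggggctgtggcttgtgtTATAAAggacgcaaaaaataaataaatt
IGFBP4: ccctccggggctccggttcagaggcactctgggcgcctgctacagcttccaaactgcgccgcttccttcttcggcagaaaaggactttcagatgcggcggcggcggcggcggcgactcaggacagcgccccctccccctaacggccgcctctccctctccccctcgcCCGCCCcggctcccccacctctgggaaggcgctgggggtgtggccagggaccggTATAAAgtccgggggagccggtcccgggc
IGFBP3: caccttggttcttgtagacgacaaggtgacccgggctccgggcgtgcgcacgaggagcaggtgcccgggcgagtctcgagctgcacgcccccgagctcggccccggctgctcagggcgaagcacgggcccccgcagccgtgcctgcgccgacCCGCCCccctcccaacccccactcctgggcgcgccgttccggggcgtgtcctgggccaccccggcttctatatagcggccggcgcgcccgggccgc

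PAPPA and IGFBP4 each held TATAAA, starting at base -28 and base -29 from the start site, as did 10.7% of the 35116 promoter windows of 250 bases in the table. PAPPA also held a FOXO match at base -137, found in 2.98% of promoters, and no GC box. IGFBP4 and IGFBP3 each held a GC box, at base -83 and base -98, and 42.6% of promoters held one. No AP-1 match was found in the 3 windows, against 6.57% of all promoters. These are matches of letters in a short window, and no binding was measured.

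Levels can be compared between genes only per length, for which counts were divided by the exon length of the gene and scaled to the same sum in every library. On this scale the fibroblasts expressed mainly 3 binding proteins. At D0 IGFBP5, which binds the extracellular matrix as well as IGF, stood at 7693 ± 1782 (SD, n = 2), IGFBP4, an inhibitor of IGF action, at 4968 ± 168, and IGFBP7, a secreted relative that binds IGF weakly, at 2423 ± 704. IGFBP3, the main carrier of IGF in blood, followed at 402 ± 83.7, IGFBP6, which prefers IGF2, at 239 ± 33.5, and IGFBP2 at 104 ± 18.2. PAPPA stood at 49.1 ± 25.0, IGF1R at 18.5 ± 1.56 and IGF2 at 17.1 ± 3.02. The libraries of neighbours in this order did not overlap at D0, apart from IGF1R and IGF2.

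The order shifted with the medium. At D4 IGFBP5 and IGFBP4 overlapped, as did IGFBP2 with IGFBP3 and PAPPA with IGF2, and the level per length of IGFBP3 was then 123 ± 28.3 (SD, n = 2). At D10 PAPPA, at 123 ± 62.9, stood between IGFBP6 at 186 ± 93.3 and IGFBP2 at 106 ± 37.6, and each of these neighbours overlapped with the next, down to IGFBP3 at 94.6 ± 71.3.

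IGF1 was close to absent from the RNA. It had 4 and 1 counts in the D0 libraries of experiments 1 and 2, 0 and 1 at D4, and 0 in all 4 libraries of D7 and D10. A count of 0 allows up to 3 counts, or between 0.228 and 0.237 CPM (counts scaled to the library total) in those 4 libraries, and it covers counting error only. IGF1 was not tested, and no fold change is given. IGF2 was therefore the ligand these libraries could measure.

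Expression of each gene is given below as CPM, with library totals adjusted by the TMM method of edgeR, and each day was compared with D0 by the quasi-likelihood test of edgeR across 13798 genes, with Benjamini-Hochberg adjustment. Changes within an experiment are differences in log2 CPM between its own libraries. The experiments differed widely, and libraries of the same experiment deviated together, so a second fit took the experiment number as a replicate block. Nothing says more about the replicates than that the experiments were independent.

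Markers were read to check the labelled cell type, and 1 library stood apart. All 10 fibroblast markers were tested, with a summed level between 30386 and 46849 CPM in 7 libraries and 10131 CPM in the D10 library of experiment 2, where COL1A1 had 1295 CPM against 9432 in experiment 1. That library also held the lowest IGFBP3, IGFBP6 and IGFBP7 of all 8, and with the block described below the fibroblast markers PDGFRB and DCN were called lower at D10 and LUM at D7. The part of this in the results for IGFBP3, IGFBP6 and IGFBP7 was not tested, and in experiment 1 alone their log2 changes at D10 were -1.25, -0.07 and -0.52. None of the 7 epithelial markers in the table reached the filter, with at most 12 counts in any library. Of 5 endothelial markers 2 were tested, and TEK had up to 1522 counts while PECAM1 had at most 13 and CDH5 at most 5. Of 4 blood cell markers only CD14 was tested, with at most 32 counts. The 8 proliferation markers summed to between 99.5 and 105 CPM in the D0 libraries, from 111 to 166 with D4 medium, from 109 to 147 with D7 medium and from 84.5 to 98.9 with D10 medium. Of these, 0 were called by edgeR, with or without the block, or by DESeq2. At an unadjusted p under 0.05 edgeR had 0 of them without the block, and with it 2 at D4 and 0 at D7 and D10. Total counts ran from 11708193 to 13395912 per library. In bulk RNA, fewer cells that express a gene and less RNA of it per cell cannot be told apart.

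**Figure D1:**
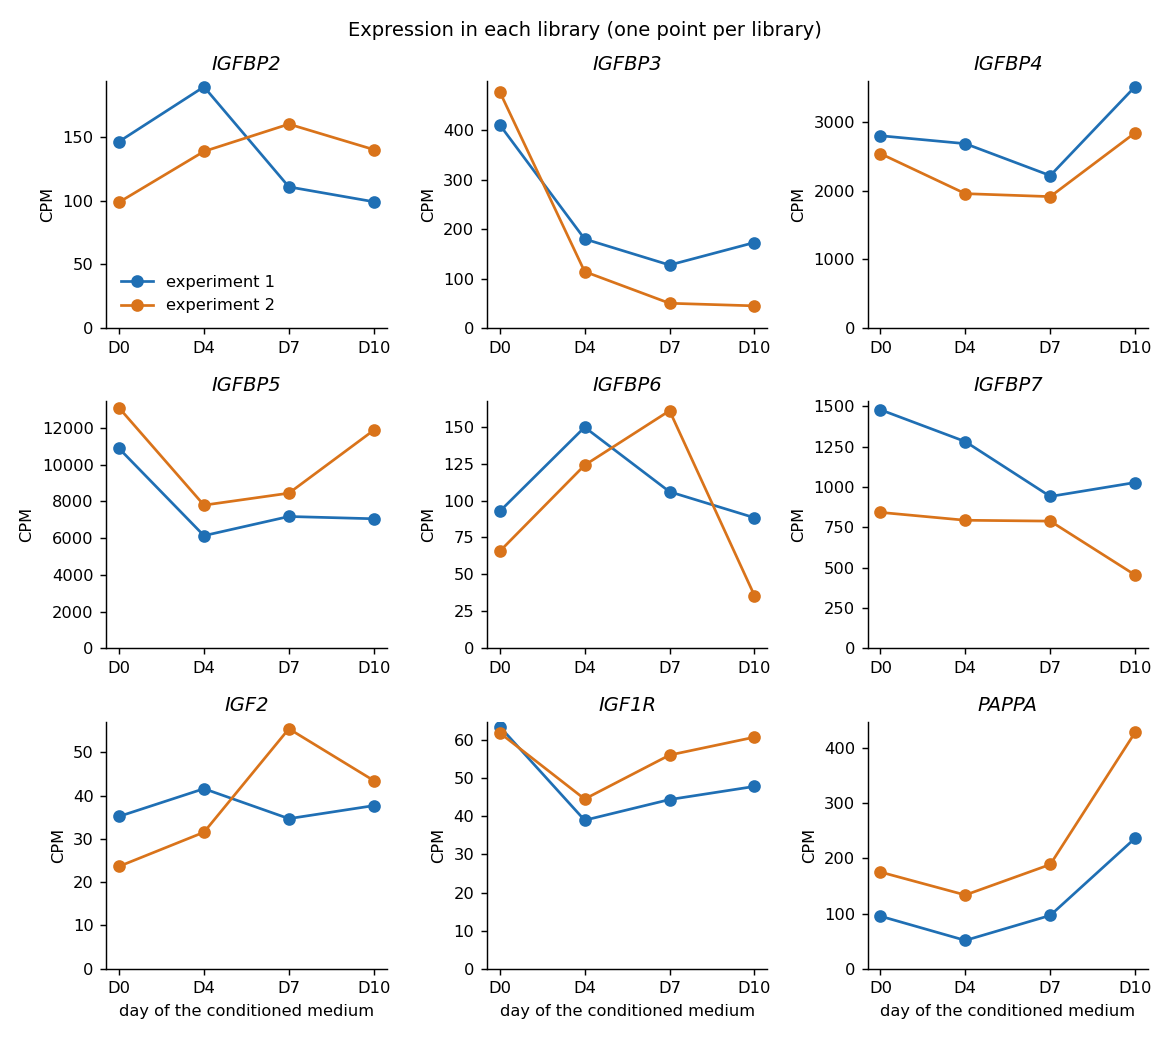
CPM of the 9 tested members (y axes, from 0, each on its own scale) by the day of the conditioned medium (x axes). Each point is 1 library and lines join the libraries of 1 experiment. IGFBP3 is below both D0 libraries in every later library, and the PAPPA libraries are both above the D0 libraries only at D10.

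IGFBP3 was lower with every medium from induced cells. It had 411 and 478 CPM in the D0 libraries of experiments 1 and 2, then 180 and 114 with D4 medium, 127 and 50.0 with D7 medium and 173 and 44.7 with D10 medium. All 6 later libraries lay below both D0 libraries. Within experiment 1 the ratio of D0 to the later library was 2.28 at D4, 3.23 at D7 and 2.38 at D10, and within experiment 2 it was 4.19, 9.57 and 10.7.

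The fitted log2 fold changes of IGFBP3 were -1.60 ± 0.65 (SE), -2.33 ± 0.66 and -2.03 ± 0.66 on the 3 days in order, with edgeR adjusted p-values of 1.00, 0.632 and 0.354. With the replicate block IGFBP3 fell at D7 (-2.57 ± 0.44, adjusted p = 0.0356) and at D10 (-2.35 ± 0.44, adjusted p = 0.0188), and at D4 it was at -1.73 ± 0.42 (adjusted p = 0.180). DESeq2 also called the fall at D7 (adjusted p = 0.0116) and at D10 (adjusted p = 0.0214). Without the D10 library of experiment 2 the fitted value at D10 was -1.36, and without that of experiment 1 it was -3.30, neither called by edgeR without the block. At D7 the value was -1.80 without the D7 library of experiment 2 and -3.15 without that of experiment 1, again not called.

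PAPPA was lower than D0 with D4 medium and higher with D10 medium in both experiments. It measured 95.4 and 175 CPM at D0, 51.4 and 134 at D4, then 96.8 and 189 at D7 and 237 and 429 in the D10 libraries. The D10 libraries were the 2 highest, while at D4 and D7 the groups overlapped with D0 because experiment 2 ran above experiment 1 in every group. Within experiments 1 and 2 the log2 change was -0.89 and -0.39 with D4 medium, 0.02 and 0.11 with D7 medium and 1.31 and 1.29 with D10 medium, so that D10 was 2.48 and 2.44 times its own D0.

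The fitted log2 fold change of PAPPA at D10 was 1.30 ± 0.56 (SE), with an edgeR adjusted p of 0.627. With the replicate block it was 1.30 ± 0.17 and PAPPA was called higher (adjusted p = 0.0044), whereas DESeq2 without a block gave an adjusted p of 0.274. Of the fits run, only the one with the block called PAPPA at D10. Whether that call depends on 1 library was not tested. At D4 PAPPA was at -0.55 ± 0.55, and with the block at -0.63 ± 0.17 (adjusted p = 0.245). Leaving out the D10 library of experiment 2 gave 0.81 at D10, and leaving out the D0 library of experiment 2 gave 1.80, both without the block.

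IGFBP4, which PAPPA cuts, stood at 2799.7 and 2539 CPM in the D0 libraries, 2684 and 1956 in those of D4, 2219 and 1913 in those of D7, and 3516 and 2843 in those of D10. Both D7 libraries lay below and both D10 libraries above the D0 libraries, by small margins. The fitted log2 fold changes were -0.20 ± 0.30 (SE), -0.37 ± 0.30 and 0.25 ± 0.30 on the 3 days, and none passed the test, with or without the block.

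IGFBP5, another PAPPA substrate and the most abundant member, had 10877 and 13086 CPM at D0, then 6132 and 7792 with D4 medium, 7175 and 8444 with D7 medium and 7052 and 11871 with D10 medium. The D4 and D7 libraries lay below both D0 libraries, and at D10 experiment 2 was back between them. Its log2 fold changes were -0.78 ± 0.39 (SE), -0.62 ± 0.39 and -0.34 ± 0.39, and with the block -0.79 ± 0.26 at D4 (adjusted p = 0.394), so no day was called.

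IGFBP2, the third substrate named above, measured 147 and 98.9 CPM at D0, 189.7 and 139 at D4, then 111 and 160.4 at D7 and 99.3 and 140.3 in the D10 libraries. Its libraries overlapped with D0 on every day, and the experiments moved in opposite directions at D7 and D10. The fitted log2 fold change at D10 was -0.04 ± 0.32 (SE).

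IGFBP6 stood at 92.7 and 65.7 CPM in the D0 libraries, 149.6 and 124 in those of D4, 106 and 161 in those of D7, and 88.4 and 35.7 in those of D10. It was above both D0 libraries at D4 and D7, and at D10 experiment 1 was back near its D0 while experiment 2 held the lowest value of the 8 libraries. The log2 fold changes were 0.79 ± 0.43 (SE), 0.75 ± 0.43 and -0.35 ± 0.43, none called.

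IGFBP7 had 1479.8 and 843 CPM at D0, then 1282 and 794 with D4 medium, 942 and 789 with D7 medium and 1028 and 455 with D10 medium. Every later library was below the D0 library of its own experiment, but the groups overlapped on each day because experiment 1 ran higher throughout. Its log2 fold change at D10 was -0.65 ± 0.47 (SE), and with the block -0.69 ± 0.23 (adjusted p = 0.156). Without the block it was -0.18 and -1.33 when the D10 library of experiment 2 or 1 was left out, and -1.0 and -0.19 when the D0 library of experiment 2 or 1 was, none of them called.

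The ligand IGF2 measured 35.2 and 23.7 CPM at D0, 41.6 and 31.5 at D4, then 34.7 and 55.4 at D7 and 37.7 and 43.5 in the D10 libraries. Only the D10 libraries both lay above D0, and the log2 fold change there was 0.46 ± 0.31 (SE). The receptor IGF1R stood at 63.5 and 61.9 CPM in the D0 libraries, 39.0 and 44.5 in those of D4, 44.4 and 56.0 in those of D7, and 47.8 and 60.7 in those of D10. All 6 later libraries of IGF1R were below both D0 libraries, at D10 by little in experiment 2, with log2 fold changes of -0.59 ± 0.22, -0.32 ± 0.22 and -0.21 ± 0.22. With the block IGF1R at D4 was at -0.59 ± 0.14 (adjusted p = 0.180), and neither gene was called on any day.

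**Figure D2:**
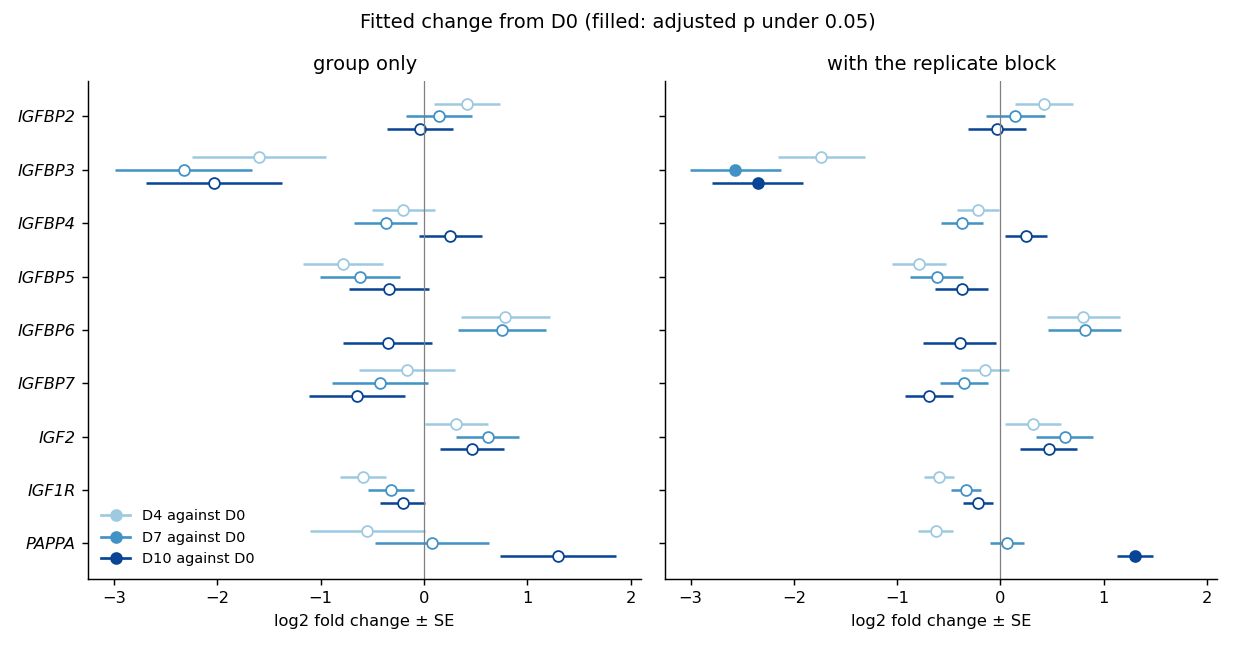
Fitted log2 fold change from D0 (x axis, bars are ± 1 SE) of the 9 tested members (y axis) on each day, without (left) and with (right) the replicate block. Filled points passed an adjusted p of 0.05, which were IGFBP3 at D7 and D10 and PAPPA at D10, all with the block.

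Over the 9 tested members, edgeR without the block called 0 on each day, beside 0 of 13798 genes (0%) at D4, also 0 (0%) at D7, and 40 (0.29%) with D10 medium. At an unadjusted p under 0.05 the 3 days had 2, 1 and 2 members among 409, 599 and 1095 genes, and DESeq2 called 0, 1 and 1 members (IGFBP3 both times), beside 0.348%, 0.823% and 2.59% of the genes it tested. With the replicate block 0 of 9 members were called at D4, 1 lower at D7, and 1 higher and 1 lower at D10, where the share of all genes called was 0.275%, 1.25% and 4.99%. This fit had 5, 4 and 3 members at an unadjusted p under 0.05, among 1124, 1456 and 2517 genes. The median log2 fold change of the members was -0.20, -0.32 and -0.21 on the 3 days, and that of all tested genes was 0.01, 0.00 and 0.00.

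Counted by direction alone, 3 members were higher than D0 in both experiments at D4 and 6 lower, when 29.8% of all tested genes were higher in both and 28.9% lower. At D7 there were 2 higher and 5 lower members, against 31.3% and 31% of genes, and at D10 3 higher and 5 lower, against 31.1% and 32.3%. IGFBP3, IGFBP5, IGFBP7 and IGF1R were lower in both experiments on all 3 days. The share of all tested genes lower in this way on all 3 days was not counted. All 3 days share the D0 libraries, so these counts are not independent of each other. The members were chosen with earlier results of these data known, so the counts are no test of them as a set.

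The turn between D4 and D10 was tested directly, in a contrast chosen after the values were seen. PAPPA had a log2 difference of 1.85 ± 0.57 (SE) between D10 and D4, with an edgeR adjusted p of 0.558, and 1.93 ± 0.17 with the block, where it was called (adjusted p = 0.0016). DESeq2 called it too (adjusted p = 0.0458), beside 0.938% of genes. It was the only member called in this contrast with the block, beside 2.55% of all genes, and without the block 0 members and 0.00725% of genes were called.

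The sum of the per-length levels of IGFBP2 to IGFBP7 was 14925 and 16733 in the D0 libraries of experiments 1 and 2, 10966 and 10936 with D4 medium, 10661 and 11435 with D7 medium and 12839 and 15521 with D10 medium. On this scale, which unlike CPM is not adjusted by TMM, every later library was below both D0 libraries except the D10 library of experiment 2. That library lay between them, and its place with the TMM adjustment was not computed. Of this sum IGFBP3 made up 2.30% and 2.76% at D0, 1.30% and 0.939% with D4 medium, 1.02% and 0.397% with D7 medium and 1.13% and 0.285% with D10 medium. IGFBP4 made up 32.5% and 30.4% at D0 and 47.7% and 37.6% at D10, so its share was larger at D10 in both experiments. IGFBP5 took 43.1% and 53.5% of the sum at D0 but 32.7% and 53.6% with D10 medium, so its share was smaller in experiment 1 only. IGFBP6 took 1.76% and 1.28% at D0, 3.67% and 3.47% at D4, and 1.96% and 0.771% at D10. These shares were not tested.

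**Figure D3:**
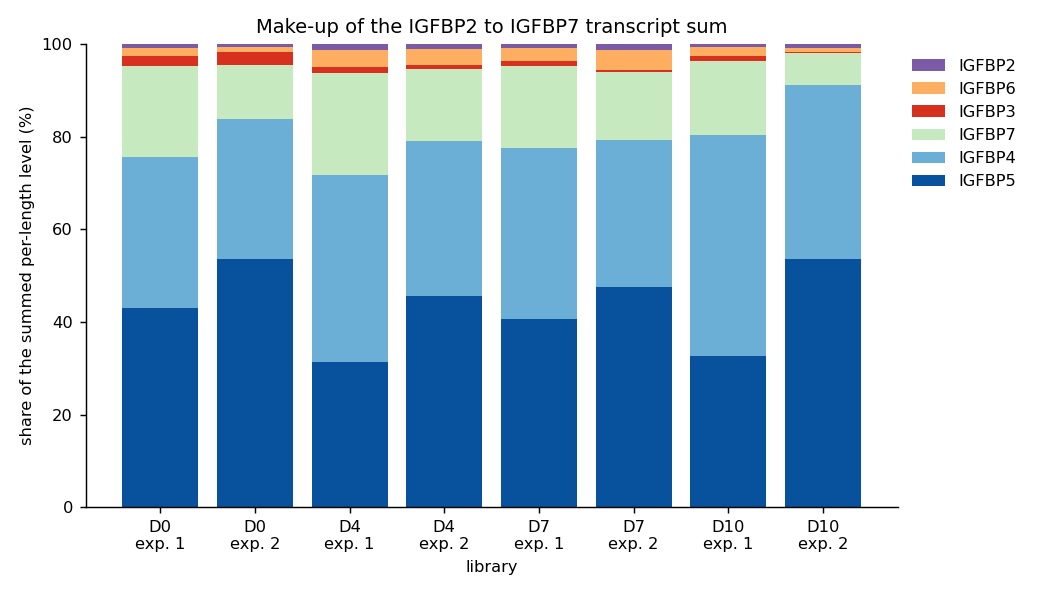
Share of each binding protein (colours) in the summed per-length level of IGFBP2 to IGFBP7 (y axis, percent) in each of the 8 libraries (x axis). IGFBP5, IGFBP4 and IGFBP7 fill most of every bar, and the IGFBP3 band narrows from 2.30% and 2.76% at D0 to 1.13% and 0.285% at D10.

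Members also differed between the experiments, and by edgeR about as often as all tested genes did. In the blocked fit, experiment 2 against experiment 1, 3 of 9 members were called (1 higher, 2 lower in experiment 2), beside 34.8% of all genes. PAPPA was higher in experiment 2 by a log2 difference of 1.02 ± 0.12 (SE, adjusted p = 0.0013), and was so in 4 of 4 groups, by between 0.86 and 1.38. IGFBP7 was lower in experiment 2 by -0.73 ± 0.17 (adjusted p = 0.0116), in 4 of 4 groups. IGFBP3 was at -0.93 ± 0.30 (adjusted p = 0.0439), but not alike in all groups, since at D0 it was higher in experiment 2 by 0.22 and at D10 lower, at -1.95. DESeq2, with the same block, called 4 members beside 31.4% of genes: PAPPA and IGFBP7 again, IGFBP5 higher (0.39, adjusted p = 0.0138) and IGFBP4 lower (-0.29, adjusted p = 0.0388), but not IGFBP3 (adjusted p = 0.0884). Why the experiments differ was not tested.

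**Figure D4:**
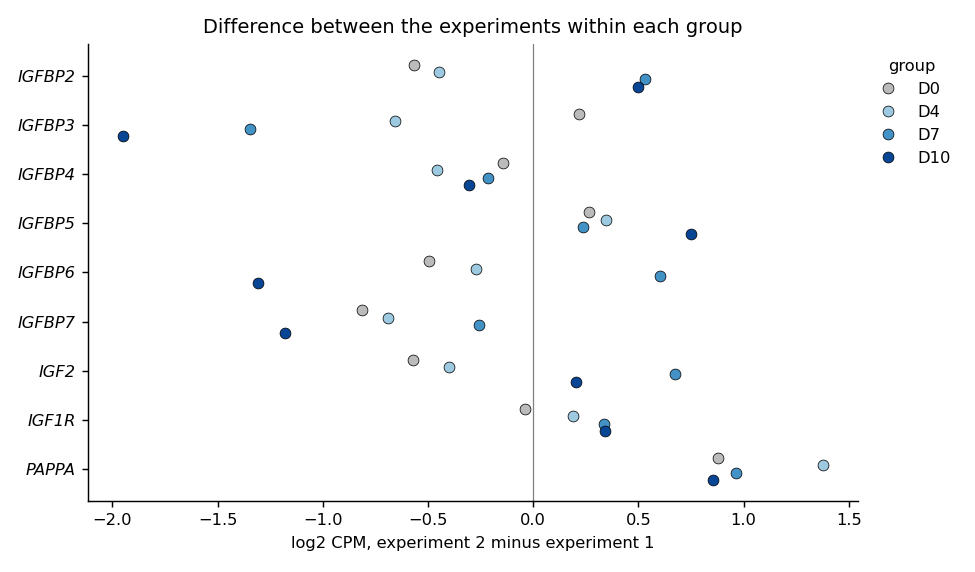
Log2 CPM of experiment 2 minus experiment 1 (x axis) for the 9 tested members (y axis), 1 point per group (colours). PAPPA is right of 0 and IGFBP7 left of 0 in all 4 groups, while IGFBP3 runs from 0.22 at D0 to -1.95 at D10.

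Of 16 listed proteases of binding proteins and their inhibitors, 14 were tested. EdgeR called 3 higher and 0 lower at D10, and with the block 2, 3 and 4 were higher and 0 lower at D4, D7 and D10, while DESeq2 called 3, 3 and 4, all higher. Of all tested genes edgeR called 0.29% at D10, and with the block 0.275%, 1.25% and 4.99% on the 3 days. The list was chosen with earlier results of these data known, so these counts are no test of the list as a set. STC1, an inhibitor of PAPPA, had 61.5 and 44.6 CPM at D0, then 267 and 359 with D4 medium, 499 and 485 with D7 medium and 1464 and 2172 with D10 medium. It rose at D10 by a log2 fold change of 5.10 ± 0.37 (SE, edgeR adjusted p = 0.0053), and with the block was called on all 3 days. So STC1 was already higher at D4, when PAPPA was below its D0 level in both experiments. The other inhibitor, STC2, measured 464 and 428 CPM at D0, 388 and 286 at D4, then 493 and 232 at D7 and 802 and 855 in the D10 libraries, with a log2 fold change of 0.89 ± 0.37 at D10 that was not called (with the block, adjusted p = 0.104).

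Urokinase (PLAU) and the collagenase MMP1 also rose at D10, by 2.29 ± 0.33 (SE, edgeR adjusted p = 0.0480) and 5.68 ± 0.47 (adjusted p = 0.0106). Of the tests at D10, edgeR without the block did not call the stromelysin MMP3, whereas edgeR with the block (7.52 ± 1.43, adjusted p = 0.0201) and DESeq2 (adjusted p = 1.6e-05) did, and its experiments were far apart, with 254 and 3327 CPM at D10 against 19.5 and 4.29 at D0. These 3 act on many substrates beside binding proteins.

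Of 34 genes of receptor signalling, 30 were tested, and edgeR called 0 on any day, with 1, 2 and 2 at an unadjusted p under 0.05 at D4, D7 and D10, while DESeq2 called 1 on each day. With the block SOCS2, a feedback inhibitor of growth hormone and cytokine signalling, was higher on all 3 days, with 17.2 and 19.4 CPM at D0 and 49.9 and 74.7 at D10 (log2 fold change 1.75 ± 0.15, adjusted p = 0.00072). RICTOR, a subunit of the kinase complex mTORC2, was higher at D10 (1.19 ± 0.20, adjusted p = 0.0125). The fit with the block had 5, 6 and 7 of the 30 at an unadjusted p under 0.05 on the 3 days. The receptor substrate IRS2 had 23.2 and 31.1 CPM at D0 and 11.5 and 20.0 at D4, and with the block its log2 fold change at D4 was -0.82 ± 0.19 (adjusted p = 0.147). IRS2 is named after its values were seen.

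Of 15 genes listed as FOXO targets, all were tested. EdgeR called 0, with 0, 2 and 2 at an unadjusted p under 0.05, DESeq2 called 1 at D10, and with the block 1 was higher and 1 lower at D10. TRIB1, a pseudokinase, was at 0.72 ± 0.16 (adjusted p = 0.0433), and SESN3, a sestrin, at -2.32 ± 0.44 (adjusted p = 0.0195), with 15.6 and 19.7 CPM at D0 and 5.38 and 1.66 at D10. The fit with the block had 3, 6 and 4 of the 15 at an unadjusted p under 0.05 on the 3 days. Among other ligands, receptors and carriers 2 of 7 were tested (IGF2R, which clears IGF2, and INSR), among genes that regulate IGF2 RNA 5 of 7, and among relatives with an IGFBP domain, such as the CCN proteins, 7 of 9, and 0 were called on any day by edgeR, with or without the block, or by DESeq2. At an unadjusted p under 0.05 edgeR without the block had 1 of these genes, an IGFBP relative at D10. With the block it had 1, 2 and 0 regulators of IGF2 RNA and 1, 1 and 2 IGFBP relatives on the 3 days.

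The median log2 fold changes at D10 were 0.33 for the proteases and inhibitors, 0.01 for receptor signalling and -0.17 for FOXO targets. They were 0.23 for regulators of IGF2 RNA and -0.07 for the IGFBP relatives, beside 0.00 for all genes. All these lists were chosen with earlier results of these data known, so the medians only describe them.

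The genes whose pattern was most like that of PAPPA were found by Euclidean distance over 6 within-experiment log2 changes. They were CTSK (distance 0.593), PDPN (0.795), PDE7B (0.806), COL4A5 (0.820) and MAP3K8 (0.838), all below D0 at D4 and higher in both experiments at D10. For IGFBP3 they were FAM198B (1.14), GCNT4 (1.22), ADH1B (1.32), OLR1 (1.32) and NPR3 (1.37), all lower in every later library. Since the distance runs over 13798 genes and 6 values that share D0 libraries, some genes will lie near any pattern.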

How the data were processed

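RNA of the 8 recipient cultures (IMR90, poly(A) selected, stranded libraries) was sequenced by the authors, who deposited raw counts of reads per gene. The submitters' processing notes name STAR 2.5, DESeq2 and GRCh38. The counter, its strand setting and the annotation are not given in the sources used here. The table's 8 columns of normalized values were not used, and its header DO rep1 was taken as D0 replicate 1. The members and all gene lists were chosen with earlier results of these data known. Of the 27696 identifiers, 27588 are in GENCODE 29, which gave positions and exon lengths.

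Counts were filtered with filterByExpr, scaled by TMM and fitted with edgeR 4.0.16 (glmQLFit and glmQLFTest, R 4.3.3) to all 8 libraries by group, and Benjamini-Hochberg adjusted p-values over 13798 genes were called under 0.05. The SE given with edgeR values is the absolute log2 fold change divided by the square root of the F statistic of its test. Log2 CPM used a prior count of 2. The difference between experiments came from the fit with group and replicate. Totals of 11708193 to 13395912 counts set the precision of low genes, and the floor given for IGF1 covers counting error only. As alternatives, libraries were scaled by the size factors of DESeq2, tested with DESeq2 1.42.0, fitted with no filter or with a minimum of 10 counts per library, restricted to the 2 groups compared, blocked by replicate, or left out in turn. The labels speak of 2 independent experiments but do not say that a replicate number marks one. Replicate numbers were taken to mark the experiment because, across genes, libraries with the same number deviated from their group means together, with r from 0.418 to 0.722 for each of the 6 pairs of groups. Genes are not independent replicates. The methods were tested on simulated data. There, unchanged genes made up a share above 0.05 of the genes that the fit with the block called. The fit without the block missed nearly all of the smaller changes, and it missed more of the larger changes than it found. DESeq2 without a block kept the share of unchanged genes below 0.05. It found most of the larger changes and missed most of the smaller ones.

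All 10 members were named. Of other lists, genes called on any day with or without the block were named, at most 6 per list, with STC1 and STC2 always. Similar patterns were sought for the members with the largest fitted rise and fall at D10. Promoters were in the RefSeq table for 8 members. Figures used Python.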

Additional observations from a re-analysis of the deposited data

Results flagged for a closer look

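For 3 members the change from D0 had opposite directions at D4 and D10 in both experiments. The share of all tested genes that did so was not counted, so whether this is particular to the members cannot be said. Some of these changes were near 0. In experiment 1 the log2 change of IGFBP6 at D10 was -0.07 and that of IGFBP4 at D4 was -0.06. The contrast of D10 against D4 was chosen after these values were seen. PAPPA was lower at D4 and higher at D10, with a log2 difference of 1.85 between D10 and D4 that edgeR did not call (adjusted p = 0.558) and that was called with the replicate block (1.93, adjusted p = 0.0016). IGFBP6 was higher at D4 and lower at D10, with a difference of -1.14 (adjusted p = 0.761, and 0.131 with the block). IGFBP4 was lower at D4 and higher at D10, with a difference of 0.45 (adjusted p = 0.973, and 0.275 with the block). Over all alternatives the difference ran from 1.33 to 2.69 for PAPPA, from -1.93 to -0.63 for IGFBP6 and from 0.24 to 0.71 for IGFBP4.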

How the results depend on the processing

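The number of genes called differed widely between alternatives. On D4, D7 and D10 the replicate block gave 38, 172 and 688 genes, DESeq2 44, 113 and 383, and the fit without the filter 21, 93 and 371. With at least 10 counts in every library 20 were called at D10, and with the compared groups only 0. Leaving out 1 library gave between 0 and 155 genes at D10: 0 without either D0 library, 11 and 155 without D10 replicate 2 and 1, and 14 or 15 without a D4 or D7 library. Members called were 1 at D7 with the block, DESeq2 or no filter, and at D10 2 with the block and 1 with DESeq2 or no filter. The block changed no other member's call on these days. For experiment 2 against experiment 1 leaving out 1 library gave between 2121 and 5602 genes and between 2 and 3 members, with fewest genes without a D0 library, the fit without the filter called 5 members beside 5412 genes, and DESeq2 4 beside 4315. Without a D4 or D7 library IGFBP3 lost that call, without a D0 library IGFBP7 did, and without D7 replicate 1 IGFBP6 gained it (-0.68, adjusted p = 0.0447). Log2 values of members near 0 changed sign: at D10, IGFBP2 ran from -0.31 to 0.28, IGFBP5 from -0.76 to 0.0031 and IGFBP6 from -1.13 to 0.16 when 1 library was left out. Between experiments IGFBP2 ran from -0.18 to 0.19 and IGFBP2 was at -0.0012 with DESeq2's size factors, -0.00039 without the filter and -0.0050 with DESeq2, and IGF2 ran from -0.26 to 0.16 and was at 7.4e-05 with at least 10 counts in every library. When a library is left out, the lone library of its group is assumed to vary like the others. With 2 libraries per group, a value that missed the threshold is not shown to be unchanged.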
